A study of Capra hircus with 3 samples.

Results

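The comparison described here set the goat mammary gland of late lactation, at day 210 after parturition, against that of early lactation, at day 10, for protein-coding genes. Its members were 13023 protein-coding genes, obtained by summing 13424 of the 50041 loci with deposited values under their NCBI gene ID. Of these genes, 8072 reached 5 FPKM or more in the early library, the late library or both, and only these were compared. FPKM counts sequenced fragments relative to transcript length and to the total mapped in a library, so it allows for gene length and library size.

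The goats were 5 healthy Laoshan dairy goats, 4 years old and in the third lactation, and mammary tissue was taken by surgery under anaesthesia at each stage. RNA of the 5 goats was mixed in equal amounts within a stage, and each stage was sequenced as 1 stranded library, named E for early, P for peak (day 90) and L for late lactation. No treatment or genotype separated the stages. Because each stage is 1 pooled library, the spread between goats cannot be seen, no difference below has a replicate check, and no test was possible. The study gives the clean reads of each library, but the fragments behind each gene's value are unknown, so no interval is given.

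In lactation the secretory cells of the alveoli make caseins and whey proteins in the endoplasmic reticulum, join galactose to glucose into lactose in the Golgi, and assemble triglycerides into droplets that leave the cell wrapped in membrane. Prolactin signalling through STAT5 sustains this work. As lactation advances beyond its peak, the number and activity of these cells decline, and at weaning STAT3 signalling, proteases and phagocytes take part in the removal of the epithelium.

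The label of the late library was in doubt and was checked against the study's lncRNA lists. The study's supplementary list of lncRNAs that differed between the E and L libraries gives, for each lncRNA, the side of early lactation on which it lay. In the deposited values, 58 of 133 of these lncRNA genes (43.6%) lay on that side in the column labelled late, and 117 of 135 (86.7%) did so in the column labelled peak. For the list of the E and P libraries, the shares were 36 of 66 (54.5%) in the column labelled peak and 43 of 66 (65.2%) in the column labelled late. Which column holds which stage was not settled, so the column is called the library labelled late, and the value of the library labelled peak is given beside it throughout. Where 3 values of a gene follow each other, they stand in the order early, peak, late, and a log2 ratio is that of late over early. The ratios of both libraries share the early library as denominator.

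Most protein-coding genes had nearly the same value in the early library and in the library labelled late. The log2 ratio of FPKM + 1, late over early, had a median of 0.0077 over the 8072 genes, with an interquartile range of -0.17 to 0.15. Within 1.2-fold of each other were 5802 genes (71.9%). At least 2-fold apart on this scale were 136 genes (1.68%), with 35 higher (0.434%) and 101 lower (1.25%) in the library labelled late. Without the genes listed at 0 in either library, 128 of 8064 genes (1.59%) were 2-fold apart, 33 higher (0.409%) and 95 lower (1.18%). Ratios lay above 0 for 51.5% of the 8072 genes and below 0 for 48.5%. These shares, with 0.434% called higher and 1.25% called lower, are the background for the list counts below. A gene that passed the filter through 1 library alone could lie only on that library's side. The list counts of ratios above and below 0 include such genes. The library labelled peak stood further from early. Of the same genes, 692 (8.57%) were 2-fold apart there, 172 higher (2.13%) and 520 lower (6.44%), around a median log2 ratio of -0.14. These genes were kept by their early and late values, so a gene high in peak alone could not enter. With the filter on early or peak instead, 918 of 8678 genes were 2-fold apart, 404 higher and 514 lower, around a median of -0.086. The peak over early medians of the lists below also rest on genes kept by early or late.

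**Figure D1:**
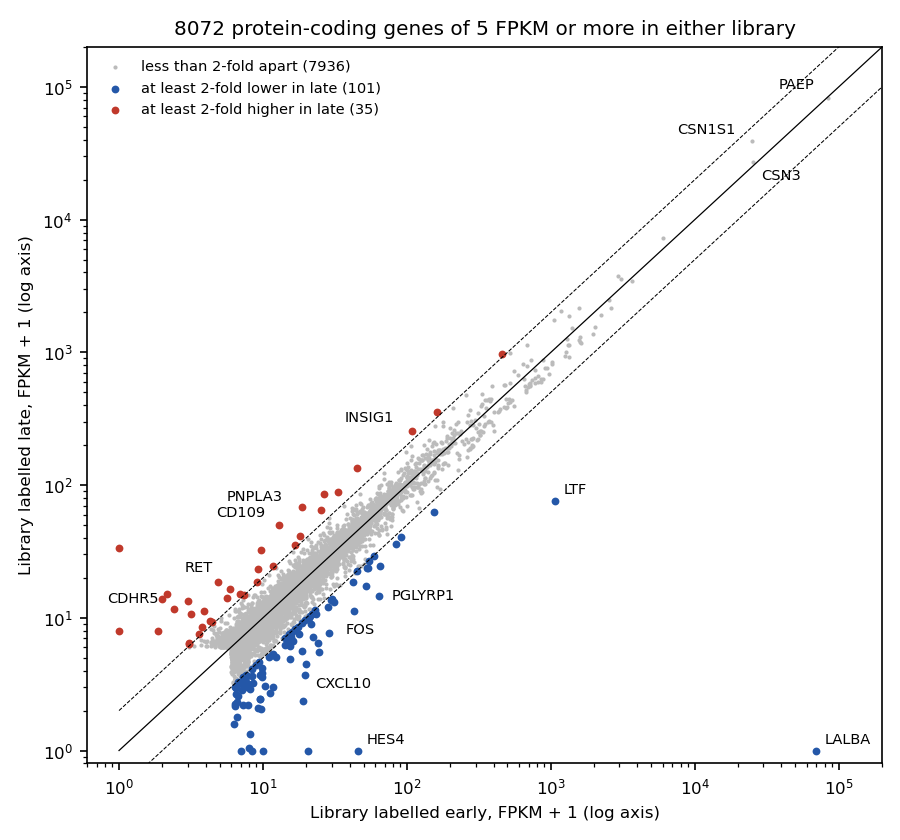
Each of the 8072 protein-coding genes is a point at its FPKM + 1 in the early library (x axis, log scale) and in the library labelled late (y axis, log scale), the solid line marking equal values and the dashed lines a 2-fold difference. The 101 genes lower in the library labelled late (blue) outnumber the 35 higher ones (red), and LALBA lies alone at the lower right, listed at 0 in the library labelled late.

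Genes close to the limits of these counts were as follows. FYTTD1, at 4.12 FPKM in early and 5.01 in late, was just past the filter, with 4.04 in peak, and FAM76A, at 4.996 and 4.56, just missed it, with 5.56 in peak. MAPK13, at 6.40 and 13.98 FPKM (4.51 in peak), was the least different of the genes called higher, and AGR2, at 27.7 and 55.4 (5.88 in peak), was left just outside. CTGF, at 49.5 and 24.3 FPKM (18.3 in peak), and MMP2, at 42.8 and 20.9 (69.1 in peak), were just short of being called lower. The share of genes 2-fold apart was 1.92% among the 2813 genes whose higher value of the 2 libraries was 5 to 10 FPKM, 1.30% among 1845 genes at 20 to 50 FPKM and 4.29% among the 70 genes at 500 FPKM or more.

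Milk protein genes were by far the most abundant transcripts of both libraries. PAEP, which encodes beta-lactoglobulin, the main whey protein of ruminants, had 84874 FPKM in early, 26998.5 in the library labelled peak and 83113 in that labelled late, a late over early log2 ratio of -0.03. CSN1S1, alpha-S1-casein, had 25057, 12017 and 39445 FPKM (log2 ratio 0.65). CSN3, kappa-casein, which keeps casein micelles in suspension, had 25445.5, 3989 and 27391 FPKM (0.11). All 3 genes had their lowest value in the library labelled peak, and early and late lay within a factor of 1.57 of each other. GLYCAM1, a mucin-like whey protein, stood at 6037, 2085 and 7237 FPKM in the same order, and LPO, the lactoperoxidase of milk, at 178, 61.4 and 300.2 FPKM.

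Among the 11 milk protein genes past the filter, LALBA and LTF were the 2 called lower, against 1.25% of all 8072 genes. LALBA, alpha-lactalbumin, the regulatory subunit of lactose synthase, had 70053 FPKM in early and 15214 in the library labelled peak, while the library labelled late lists it at 0. It was given as a single locus on scaffold NW_005100666.1, from 20596229 to 20598246. The methods name more than one goat reference, and the deposited values do not say to which of them the scaffolds belong. A listed 0 can also be an estimate that failed, which cannot be told apart here from absence of the transcript, so the size of the difference is not given. LALBA enters the counts of lower genes and the list medians only through its listed 0. LTF, lactoferrin, an iron-binding antimicrobial protein, had 1074, 556 and 75.3 FPKM and the lowest log2 ratio (-3.82) among genes above 0 in both libraries. Of 14 milk protein genes looked for, 12 were found and 11 passed the filter, with 8 ratios above 0, a median of 0.26 (0.31 without LALBA) and a median of -1.41 for peak over early. CSN2 and CSN1S2 were not found by symbol and were not analysed here.

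**Figure D2:**
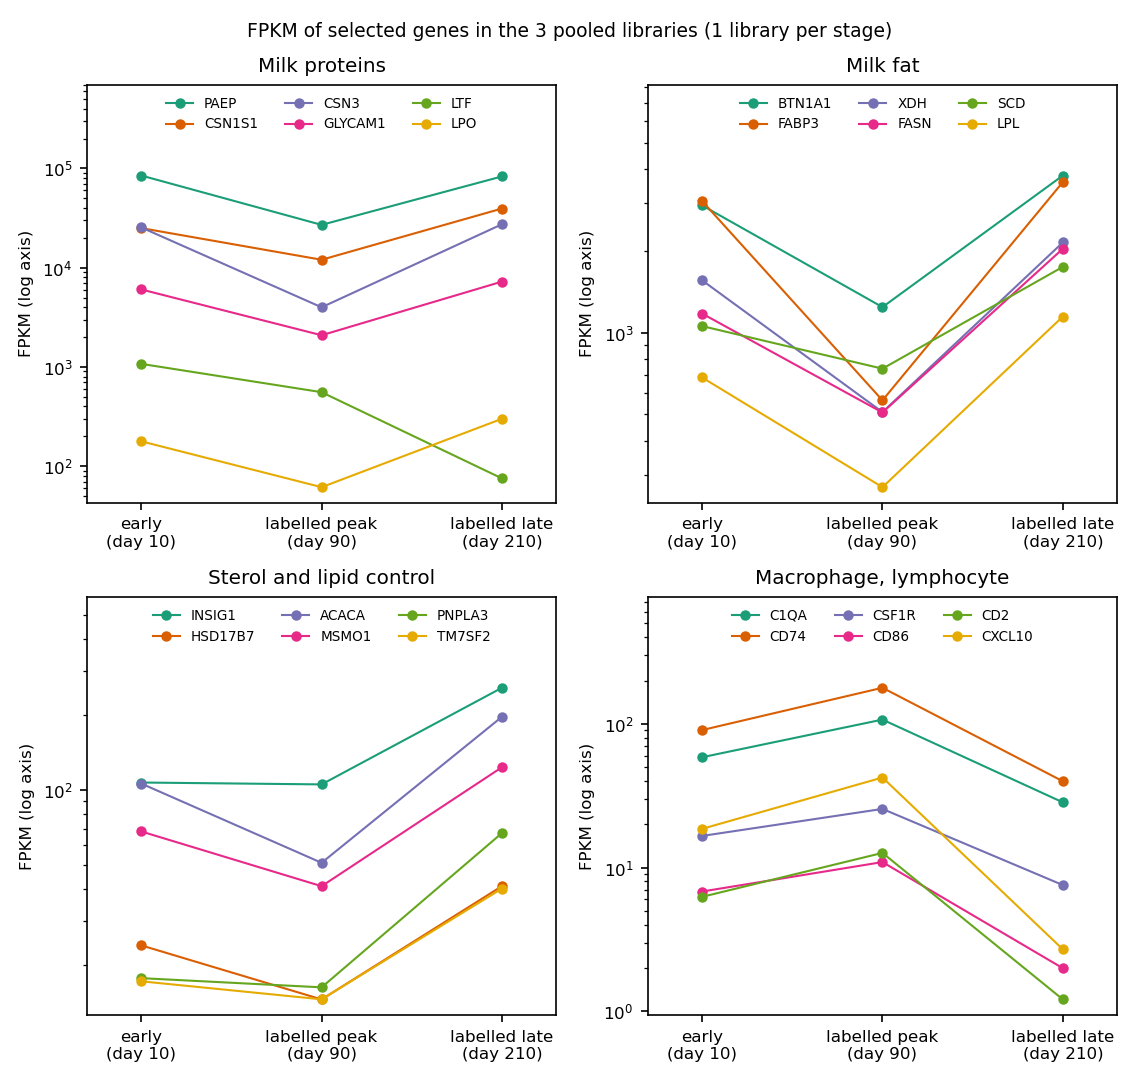
FPKM (log axis) of 24 named genes in the 3 pooled libraries, 1 point per library joined by lines only to guide the eye, for milk proteins, milk fat genes, sterol and lipid control genes, and macrophage and lymphocyte genes. The milk fat genes are lowest in the library labelled peak and highest in that labelled late, whereas the 6 immune genes are highest in the library labelled peak and lowest in that labelled late.

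Genes of the milk fat pathway were mostly higher in the library labelled late, though by less than 2-fold. In the milk fat globule and lipid droplet list, 14 of 15 genes passed the filter and 10 had ratios above 0, with none 2-fold apart and a median of 0.29 (peak over early -1.48). BTN1A1, butyrophilin, a major protein of the globule membrane, had 2940.3 FPKM in early, 1241 in peak and 3788 in late. XDH, xanthine dehydrogenase, its binding partner in the membrane, had 1558, 509 and 2148 FPKM. FABP3, a fatty acid carrier, had 3051, 563 and 3583 FPKM, so all 3 genes were highest in the library labelled late. MFGE8, lactadherin, a bridge between dying cells and phagocytes that also coats the globule, showed the largest ratio of the list at 209.5, 118 and 381 FPKM (log2 ratio 0.86). SLC34A2, a phosphate carrier counted here because it is found in globule membranes, was lower in late, at 162, 16.6 and 96.5 FPKM (-0.74).

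Fatty acid synthesis had 13 of 20 genes past the filter, 11 of them with ratios above 0, and a median of 0.36 (peak over early -0.62). FASN, fatty acid synthase, had 1175, 508 and 2036 FPKM in early, peak and late (log2 ratio 0.79). ACACA, acetyl-CoA carboxylase, which supplies its malonyl-CoA, had 106, 51.1 and 196 FPKM (0.88), and ACSS2, which activates acetate, the main carbon source of ruminant milk fat, had 156, 102 and 279.7 FPKM (0.84). The desaturase SCD had 1056, 736 and 1746 FPKM (0.72), so these 4 genes were all highest in the library labelled late, while SCD5, a related desaturase, was the lowest of the list at 9.51, 9.90 and 4.95 FPKM (-0.82). Uptake and triglyceride assembly genes lay on both sides, with 12 of 20 ratios above 0 and a median of 0.04 (peak over early -0.70). Within that list LPL, the lipase that frees fatty acids from blood lipoproteins, was at 683, 269 and 1145 FPKM (0.74).

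The cholesterol synthesis genes had the highest median of the 40 lists with at least 5 genes past the filter. Of 24 genes looked for, 21 passed the filter and 19 had ratios above 0, with a median of 0.45 (peak over early -0.58). TM7SF2, a sterol reductase, was the member at least 2-fold higher, at 17.2 FPKM in early, 14.5 in peak and 40.3 in late (log2 ratio 1.19). MSMO1, a sterol demethylase, had 68.2, 41.2 and 123 FPKM (0.84), and HSD17B7, a ketoreductase of the pathway, had 23.9, 14.5 and 41.2 FPKM (0.76). Among 12 lipogenic regulators past the filter, 1 was called higher, against 0.434% of all 8072 genes. It was INSIG1, which holds SREBP precursors in the endoplasmic reticulum and is itself a known SREBP target, at 107, 105 and 256 FPKM (1.25). The median of the regulators was 0.0038, and SREBF1 and PPARG were not found by symbol. PNPLA3, a lipid droplet hydrolase and acyltransferase that was not on the lipid lists, was among the 15 genes with the highest ratios, at 17.7, 16.2 and 67.2 FPKM (1.87).

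Lactose synthesis and most transport genes lay close to their early values. In the list of lactose synthesis and glucose supply 17 of 21 genes passed the filter, LALBA alone was called, through its listed 0, and the median was 0.05 (peak over early -0.37). PGD, an enzyme of the pentose phosphate pathway that supplies NADPH for fat synthesis, had the largest ratio above 0 in it, at 42.6, 39.9 and 64.4 FPKM (log2 ratio 0.58). Amino acid transporters had 12 of 17 ratios above 0 and a median of 0.10 (peak over early -0.43). SLC1A1, a glutamate carrier, was at 99.1, 41.6 and 147 FPKM, and SLC7A7, a carrier of basic amino acids that is also found in macrophages, at 5.93, 8.58 and 3.06 FPKM. Calcium, phosphate and zinc transport was evenly divided, with 9 of 18 ratios above 0 and a median of -0.01 (peak over early -0.75). SLC39A8, a zinc and manganese importer, had 199.8, 74.2 and 269.9 FPKM, and SLC30A2, the carrier that loads zinc into milk, had 41.0, 8.50 and 26.9 FPKM. The water and ion transport list had 9 genes past the filter and a median of -0.05 (peak over early -0.12), with AQP3, a glycerol and water channel, at 61.6, 13.7 and 42.9 FPKM.

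Secretory pathway genes were slightly but widely higher. Of the 47 genes of translocation into the endoplasmic reticulum and onward transport that passed the filter, 43 had ratios above 0, with a median of 0.20 (peak over early -0.51), against 51.5% of all 8072 genes. None was 2-fold apart, and the ratios ran from -0.12 to 0.42, the highest being that of OSTC, a subunit of the oligosaccharyltransferase, at 48.1, 30.1 and 64.8 FPKM. Of 27 unfolded protein response and chaperone genes, 25 had ratios above 0, with a median of 0.19 (peak over early -0.19). P4HB, a protein disulphide isomerase, had 379, 227 and 432 FPKM (log2 ratio 0.19), and CREB3L1, a membrane-bound transcription factor of secretory cells, had 12.3, 6.98 and 21.5 FPKM (0.76).

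Ribosomal protein genes lay on the other side. Of 64 cytosolic ribosomal protein genes past the filter, 63 had ratios below 0, with a median of -0.35 and none 2-fold apart. In the library labelled peak their median over early was -0.58. RPS29 had the highest mean, at 2629, 1963 and 2168 FPKM, and RPLP2 had 1955, 1259 and 1368 FPKM (log2 ratio -0.51), so both were highest in early. RPS27 had the lowest ratio, at 19.8, 8.96 and 10.6 FPKM (-0.85). Ribosomal proteins have many processed copies in mammalian genomes, and how fragments were divided among them was not examined. Respiratory chain genes were nearly evenly divided, with 30 of 54 ratios above 0 and a median of 0.02 (peak over early -0.62), and ATP5B, the catalytic subunit of ATP synthase, was at 189, 113 and 188 FPKM.

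Genes of the hormonal control of lactation were close to their early level. In the list of prolactin, STAT5 and growth hormone signalling, 10 of 15 genes passed the filter and none was 2-fold apart, with a median of 0.04 (peak over early -0.63). PRLR, the prolactin receptor, had 125 FPKM in early, 67.9 in peak and 131 in late, and ELF5, an alveolar transcription factor downstream of it, had 879, 244 and 875 FPKM. CISH, a feedback inhibitor of cytokine receptors induced by STAT5, was lower, at 16.0, 4.19 and 9.50 FPKM (log2 ratio -0.69). STAT5A and STAT5B were not found by symbol. The insulin, mTOR and IGF list had 11 of 23 ratios above 0 and a median of -0.03 (peak over early -0.11). IGFBP3, which binds insulin-like growth factors outside the cell, had the lowest ratio in it at 25.5, 58.2 and 13.0 FPKM (-0.92), and IGFBP5, known for its role in involution, had 31.5, 33.4 and 25.4 FPKM (-0.30).

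Other hormone and growth factor lists were small. The steroid receptor and hormone-sensing list had 7 genes past the filter, 5 with ratios above 0 and a median of 0.21 (peak over early -0.59). With the filter on early or peak instead, the peak over early median of this list was 0.35, so its sign depended on the filter. AGR2, a disulphide isomerase of oestrogen-responsive epithelium, had 27.7, 5.88 and 55.4 FPKM (log2 ratio 0.98), and PGR, the progesterone receptor, had 5.66, 15.4 and 9.35 FPKM (0.63). The EGF receptor family had 5 genes past the filter, with EGFR at 21.5, 16.1 and 24.6 FPKM and ERBB4 at 16.4, 12.6 and 21.2 FPKM. TGF-beta pathway genes had 11 of 14 ratios below 0, with a median of -0.06 (peak over early 0.34). All 14 tight junction genes past the filter had ratios above 0, with a median of 0.16 (peak over early -0.44), among them CLDN3, a claudin of the mammary epithelium, at 23.1, 16.8 and 30.9 FPKM.

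**Figure D3:**
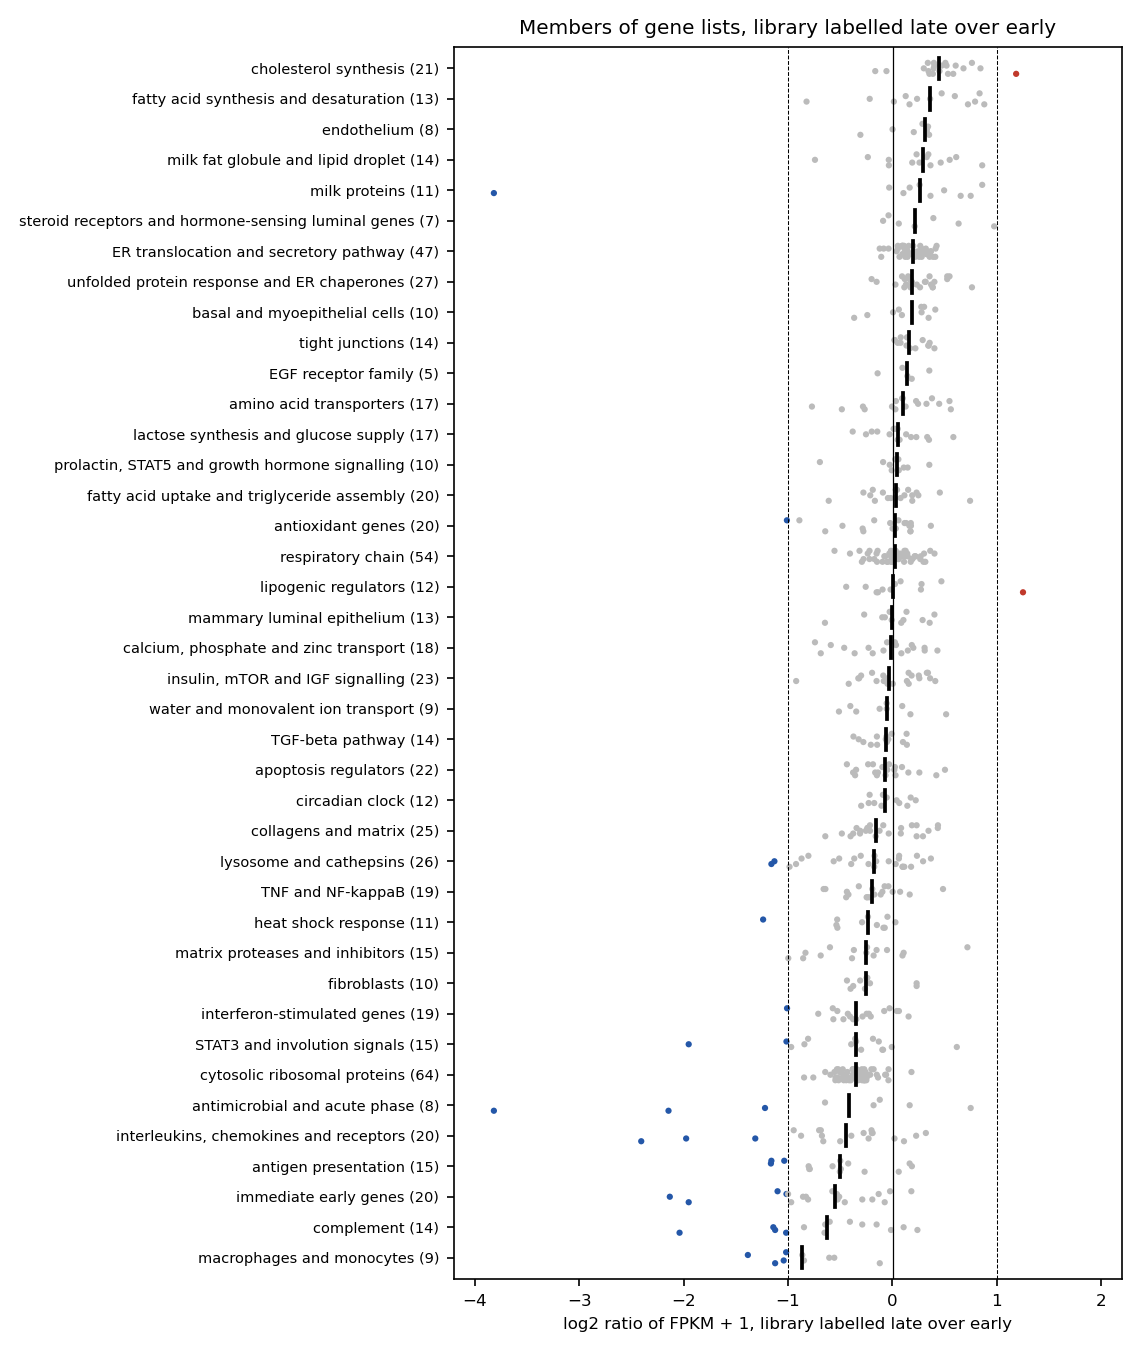
Log2 ratio of FPKM + 1 (x axis), library labelled late over early, for the members past the filter of each list with at least 5 of them, whose number stands in brackets; bars mark medians, dashed lines a 2-fold difference, and red and blue points the genes called higher and lower. Cholesterol and fatty acid synthesis lie at the top, macrophage, complement and immediate early genes at the bottom, and LALBA, listed at 0, is not drawn.

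Markers of cell types were read next, because tissue pieces hold epithelium, stroma, vessels, fat and blood cells. In a bulk library, fewer cells of a type and less RNA per cell cannot be told apart. Of 14 luminal epithelial markers 13 passed the filter, 6 with ratios above 0 and 7 below, with a median of -0.0061 (peak over early -0.37). LALBA, 1 of these 13, was listed at 0 in late. Their summed FPKM was 97434 in early, 20532 in peak and 29259 in late, the early sum being mostly LALBA. KRT8, a keratin of luminal cells, had 126, 196 and 154 FPKM in early, peak and late, and EPCAM, an epithelial adhesion molecule, had 77.8, 60.0 and 76.4 FPKM. KRT7, another keratin of the list, had its lowest ratio above 0 FPKM in both libraries, at 76.6, 157 and 48.6 FPKM (log2 ratio -0.65). Basal and myoepithelial markers had 8 of 10 ratios above 0 and a median of 0.18 (peak over early -0.21). MYH11, smooth muscle myosin, was at 74.3, 61.5 and 94.9 FPKM, and KRT5, a basal keratin, at 73.2, 96.7 and 56.6 FPKM, so these members did not lie on 1 side. Endothelial markers had 7 of 8 ratios above 0 and a median of 0.31 (peak over early -0.10), their summed FPKM being 164, 149.9 and 178. VWF, the von Willebrand factor of endothelial cells, had 31.2, 27.2 and 39.6 FPKM. PECAM1, which blood cells also carry, was their exception at 47.4, 46.9 and 38.1 FPKM.

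Macrophage markers had the lowest median of the lists with at least 5 genes past the filter. Of 14 markers, 10 were found and 9 passed the filter, with a median of -0.86 (peak over early 0.61). All 9 had ratios below 0, against 48.5% of all 8072 genes, and 4 were at least 2-fold lower, against 1.25%. Their summed FPKM was 202 in early, 337 in the library labelled peak and 107 in that labelled late. C1QA, a chain of complement C1q made by tissue macrophages, had 58.5, 107 and 28.4 FPKM (log2 ratio -1.02), and CSF1R, the receptor that sustains macrophages, had 16.6, 25.6 and 7.55 FPKM (-1.04). CD86, a costimulatory molecule of antigen-presenting cells, had 6.81, 10.9 and 1.99 FPKM (-1.38). Each of these was highest in the library labelled peak and lowest in that labelled late. CD86 passed the filter through the early library alone, so nothing is read from its call. Over all 10 markers found, whatever their values, the median was -0.85.

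T and cytotoxic lymphocyte markers were near the limit of the filter. Of 18 markers, 14 were found, with a median of -0.75 over all of them. Only CD2 and NKG7 passed the filter, and both did so through the early library alone, so nothing is read from their count. CD2, an adhesion molecule of T and natural killer cells, had 6.25, 12.6 and 1.21 FPKM (log2 ratio -1.72), and NKG7, a protein of cytotoxic granules, had 5.90, 8.30 and 2.24 FPKM (-1.09). The summed FPKM of the list was 42.9, 100.5 and 18.3. CD3E, a chain of the T cell receptor complex, was the exception, listed at 0 in early and in peak and at 1.43 FPKM in late. B and plasma cell markers had 4 genes past the filter, 3 of them with ratios below 0, and a median of -0.05 (peak over early 1.09). MZB1, a chaperone of antibody-secreting cells, had 14.99, 50.8 and 11.4 FPKM (-0.36), IRF4, a transcription factor of plasma cells, 10.4, 31.0 and 9.70 FPKM (-0.09), and JCHAIN, which joins secreted IgA, 266, 429 and 337 FPKM (0.34). Their summed FPKM of 316, 575 and 377 was mostly JCHAIN. CCL28, the chemokine that attracts IgA plasma cells to the gland, had 55.8, 18.5 and 70.0 FPKM (0.32). Neutrophil markers had 1 gene past the filter and a summed FPKM of 58.4, 42.2 and 43.0, with S100A8, a defining neutrophil protein, at 4.65, 7.57 and a listed 0. None of 8 erythrocyte markers was found by symbol, and the 1 skeletal muscle marker found lay below the filter.

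The immune pathways to which these cells contribute were lower in the library labelled late. Antigen presentation genes had 12 of 15 ratios below 0, 3 of them 2-fold lower, with a median of -0.50 (peak over early 0.53). Their member NLRC5 passed the filter through the early library alone, so its ratio could only lie below 0. The median over all 18 antigen presentation genes found, whatever their values, was also -0.50. CALR, the most abundant member, was among the 3 with ratios above 0, at 262, 234 and 298 FPKM (log2 ratio 0.19). Of all 8072 genes, 48.5% had ratios below 0 and 1.25% were 2-fold lower. CD74, the invariant chain of MHC class II, had 90.5 FPKM in early, 178 in peak and 39.8 in late (log2 ratio -1.16), CTSS, the protease that trims it, had 52.0, 75.9 and 22.7 FPKM (-1.16), and PSMB8, an immunoproteasome subunit, had 53.9, 72.0 and 25.8 FPKM (-1.04). Interleukins, chemokines and their receptors had 16 of 20 ratios below 0 and a median of -0.45 (peak over early 0.56). CXCL10, an interferon-induced chemokine, had 18.6, 42.3 and 2.70 FPKM (-2.41), CCL5, a chemokine of T cells, had 10.8, 32.8 and 2.003 FPKM (-1.98), and IL7R, a receptor of lymphocytes, had 6.46, 14.3 and 2.003 FPKM (-1.31). In CD74, CTSS, PSMB8, CXCL10, CCL5 and IL7R the library labelled peak was the highest and that labelled late the lowest. CXCL10, CCL5 and IL7R passed the filter through the early library alone, so their ratios could only lie below 0. Over all 40 interleukin, chemokine and receptor genes found, whatever their values, the median was -0.47. Interferon-stimulated genes had 16 of 19 ratios below 0 and a median of -0.35 (peak over early 0.36). Their members PARP9 and PARP14 passed the filter through the early library alone, so their ratios could only lie below 0. The median over all 32 interferon-stimulated genes found, whatever their values, was -0.29. The 1 gene called was IRF1, a transcription factor of the interferon response, at 14.2, 39.1 and 6.55 FPKM (-1.01). The macrophage and the T and cytotoxic lymphocyte sums were lower in late than in early, as these lists were. The B and plasma cell sum was higher in late, at 377 against 316 FPKM. The part of these cells in the lists was not tested.

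Complement genes had 12 of 14 ratios below 0 (48.5% of all 8072 genes) and 4 genes 2-fold lower (1.25% of all genes), with a median of -0.62 (peak over early 0.86). CFI, which cleaves C3b and C4b, had 10.2, 45.5 and 1.72 FPKM (log2 ratio -2.04), and CFB, a protease of the alternative pathway, had 5.49, 18.8 and 1.95 FPKM (-1.14). The other called members were the macrophage markers C1QA and C1QB. CFI and CFB passed the filter through the early library alone, so their ratios could only lie below 0 and nothing is read from their calls. Over all 22 genes found, whatever their values, the median was -0.49. C9, a pore-forming component, lay on the other side at 115, 17.8 and 136 FPKM (0.24), and C3 was not found by symbol. TNF and NF-kappaB genes had 15 of 19 ratios below 0 and none 2-fold apart, with a median of -0.19 (peak over early 0.25). Their member ICAM1 passed the filter through the early library alone, so its ratio could only lie below 0. The median over all 31 TNF and NF-kappaB genes found, whatever their values, was -0.25.

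Antimicrobial and acute phase genes gave 12 of 33 names looked for, of which 8 passed the filter and 3 were called lower (against 1.25% of all 8072 genes), with a median of -0.41 (peak over early -1.12). Besides LTF these were PGLYRP1, a bactericidal protein of neutrophil granules, at 63.2, 3.30 and 13.5 FPKM (log2 ratio -2.14), and CHI3L1, a chitinase-like protein without enzyme activity, at 82.7, 175 and 34.9 FPKM (-1.22). PGLYRP1 and LTF were highest in early and CHI3L1 in the library labelled peak, so these genes had no common order. LCN2, an iron-scavenging protein of epithelium and neutrophils, was at 39.9, 15.7 and 35.1 FPKM (-0.18).

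The immediate early, heat shock and STAT3 lists lay mostly below their early values. Immediate early genes, which cells switch on within minutes of a stimulus, had 19 of 20 ratios below 0, 4 of them 2-fold lower, and a median of -0.55 (peak over early -0.17). The shares over all 8072 genes were 48.5% below 0 and 1.25% 2-fold lower. FOS, a subunit of the transcription factor AP-1, had 42.1, 19.9 and 10.2 FPKM (log2 ratio -1.95), CYR61, a matrix signalling protein, had 18.8, 9.33 and 3.52 FPKM (-2.13), EGR1, a zinc finger transcription factor, had 5.44, 4.99 and 2.004 FPKM (-1.10), and JUNB, another AP-1 subunit, had 18.6, 43.9 and 8.68 FPKM (-1.01). CYR61 and EGR1 passed the filter through the early library alone, so nothing is read from their calls. Over all 25 immediate early genes found, whatever their values, the median was -0.66. Heat shock genes had 10 of 11 ratios below 0 and a median of -0.23 (peak over early -0.10), with CRYAB, a small chaperone, at 27.4, 25.7 and 11.05 FPKM (-1.24). In the list of STAT3 and involution signals, 14 of 15 ratios were below 0, with a median of -0.35 (peak over early 0.08), and the 2 called members were FOS and JUNB of the immediate early list. Its member ZFP36 passed the filter through the early library alone, so the ratio of ZFP36 could only lie below 0. The median over all 20 genes of the list found, whatever their values, was -0.32. STAT3 itself had 41.3, 40.9 and 38.6 FPKM (-0.10), and OSMR, the oncostatin M receptor that activates it, had 12.9, 20.1 and 6.77 FPKM (-0.84).

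Lysosomal genes had 16 of 26 ratios below 0, with a median of -0.17 (peak over early 0.09), and the 2 called members were CTSS and CTSW, cathepsins of antigen-presenting and cytotoxic cells. CTSW, at 10.7, 22.3 and 4.36 FPKM, passed the filter through the early library alone, so nothing is read from its call. CTSB, the cathepsin active in the dying mammary epithelium, was at 74.2, 85.4 and 56.2 FPKM (log2 ratio -0.39). Apoptosis regulators had 14 of 22 ratios below 0, none 2-fold apart and a median of -0.07 (peak over early 0.05). Antioxidant genes had 12 of 20 ratios above 0 and a median of 0.03 (peak over early 0.14), with SOD2, the mitochondrial superoxide dismutase, at 44.5, 135 and 23.6 FPKM (-0.89) and FTL, the ferritin light chain, at 44.0, 31.9 and 21.3 FPKM (-1.01). Clock genes had 5 of 12 ratios above 0 and a median of -0.07 (peak over early -0.28).

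Stromal genes were moderately lower. Matrix proteases and their inhibitors had 12 of 15 ratios below 0 and a median of -0.25 (peak over early 0.67). Their member SERPINE2 passed the filter through the early library alone, so its ratio could only lie below 0. The median over all 21 genes of the list found, whatever their values, was -0.31. TIMP3, the most abundant member, was among the 3 with ratios above 0, at 66.2, 91.9 and 71.4 FPKM (0.11). MMP2, a gelatinase of stromal cells, had 42.8, 69.1 and 20.9 FPKM (log2 ratio -0.997, just short of the limit), and MMP14, which activates it, had 31.2, 58.1 and 17.1 FPKM (-0.83). Both were highest in the library labelled peak. Collagens and matrix genes had 16 of 25 ratios below 0 and a median of -0.16 (peak over early 0.02), and within them COL1A1, of fibrillar collagen, had 78.2, 46.3 and 59.0 FPKM (-0.40) and COL4A1, of the basement membrane, 62.0, 20.2 and 84.2 FPKM (0.44). Fibroblast markers had 8 of 10 ratios below 0 and a median of -0.25 (peak over early -0.26). Adipocyte markers had 3 genes past the filter, with ADIPOQ, the adipocyte hormone adiponectin, at 15.1, 4.10 and 5.69 FPKM (-1.27) and a summed FPKM of 61.8, 35.1 and 47.5. Proliferation genes were scarce, with 4 of 25 found past the filter, and MKI67, a marker of dividing cells, was at 0.675, 0.734 and 0.356 FPKM.

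**Figure D4:**
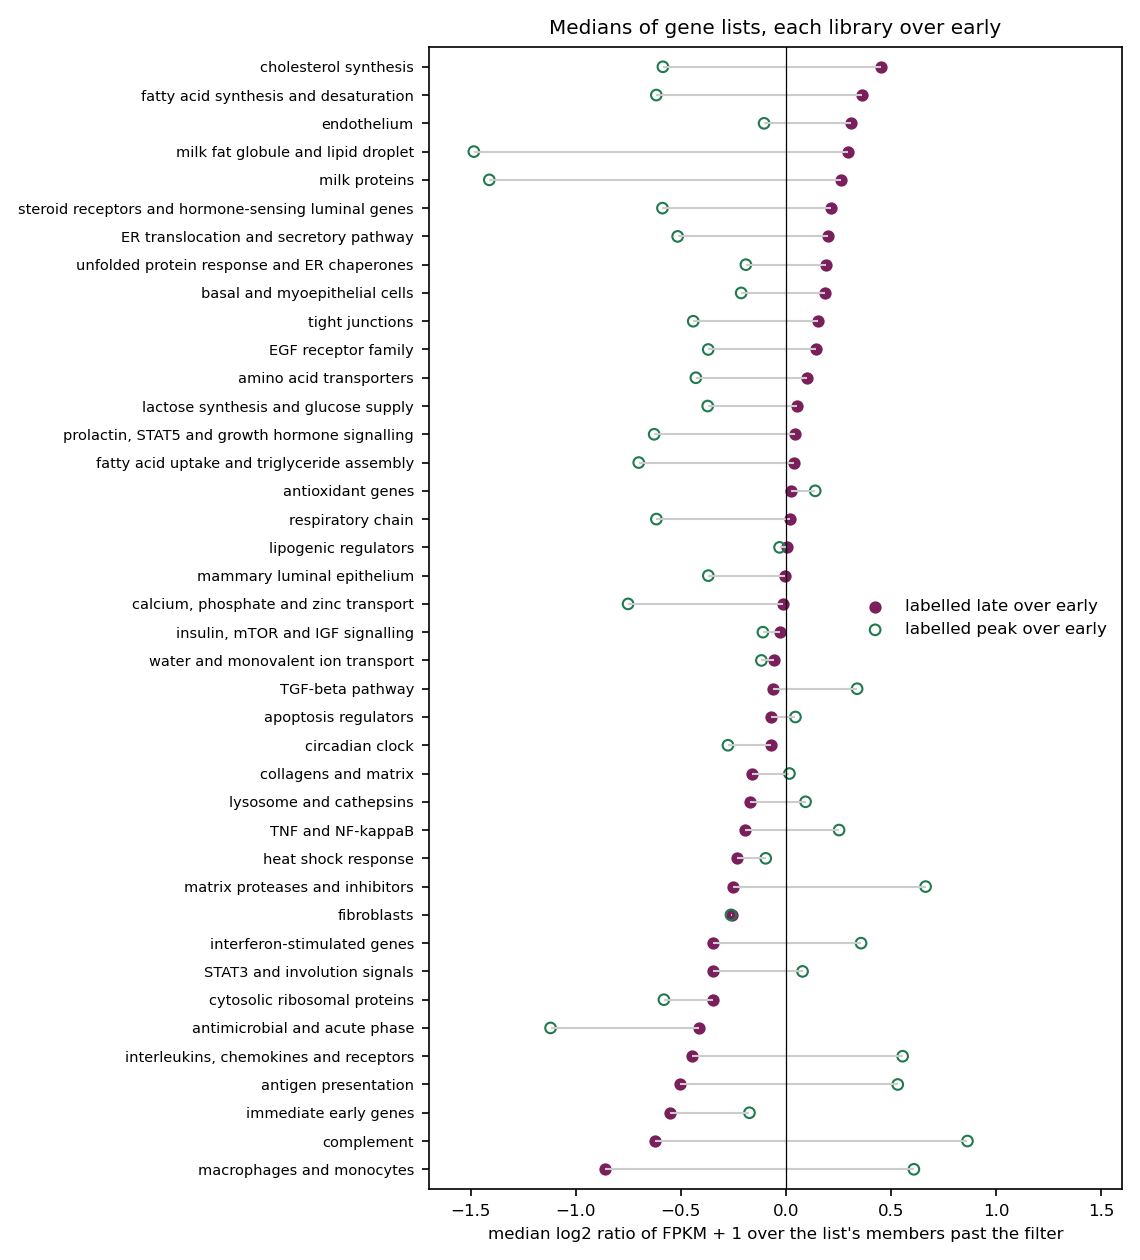
Median log2 ratio of FPKM + 1 (x axis) over the members past the filter of each list with at least 5 of them, for the library labelled late over early (filled) and the library labelled peak over early (open), both sharing the early library. Milk protein and milk fat globule genes have medians of 0.26 and 0.29 in the library labelled late and -1.41 and -1.48 in that labelled peak, and macrophage and complement genes lie on opposite sides of 0 in the same way as each other.

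Across the 40 lists with at least 5 genes past the filter, 6 had a median at least 0.2 above that of all genes and 12 at least 0.2 below it. The first were milk proteins, milk fat globule, fatty acid synthesis, cholesterol synthesis, steroid receptors and endothelium. The latter held the macrophage, complement, antigen presentation, chemokine, interferon-stimulated and antimicrobial lists, the immediate early, heat shock and STAT3 lists, and the ribosomal protein, matrix protease and fibroblast lists. The lists share members, so they are not separate observations.

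The 15 genes with a symbol and the highest ratios were on none of the lists. CDHR5, a protocadherin of microvilli, had 1.42 FPKM in early, 1.198 in peak and 10.6 in late (log2 ratio 2.26), and RET, a receptor tyrosine kinase for neurotrophic factors, had 3.87, 3.24 and 17.5 FPKM (1.92). CD109, a surface protein that binds TGF-beta, had 11.9, 15.6 and 49.0 FPKM (1.95). FGFBP1, a carrier that releases fibroblast growth factors from the matrix, had 25.7, 32.1 and 85.2 FPKM (1.69). These 4 genes were highest in the library labelled late, with early and peak close to each other. The library labelled late was also the highest for SDSL, a serine dehydratase-like enzyme, at 8.70, 7.90 and 31.5 FPKM (1.75), CA4, a membrane carbonic anhydrase, at 2.17, 3.34 and 9.61 FPKM (1.74), and PROM2, a protein of membrane protrusions, at 32.4, 24.2 and 87.2 FPKM (1.40). CDHR5, RET and CA4 passed the filter through the late library alone, so their ratios could only lie above 0 and nothing is read from their calls.

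Others among the 15 highest were PPM1F, a protein phosphatase, at 43.7, 96.2 and 134 FPKM (log2 ratio 1.59), SCN7A, a sodium channel protein, at 24.4, 7.47 and 63.6 FPKM (1.35), and PI16, a fibroblast protein, at 4.63, 1.28 and 13.1 FPKM (1.33). CBX6, a Polycomb protein, had 8.18, 28.7 and 22.4 FPKM (1.35) and was highest in the library labelled peak. OLFM3 and SYNDIG1, both known from the nervous system, were at 0.867, 0.568 and 6.95 FPKM and at 2.87, 3.31 and 10.2 FPKM. GPC1, a cell surface proteoglycan, was listed at 0 in early and at 3.87 and 6.99 FPKM in peak and late. PI16, OLFM3, SYNDIG1 and GPC1 also passed the filter through the late library alone, so nothing is read from their calls. The loci behind some values of the 15 highest genes were short. They ran from 908842 to 908997 for PPM1F, 2364276 to 2364848 for CBX6 and 1526577 to 1526866 for GPC1. Whether such loci cover the whole genes was not examined. Of the 35 genes called higher, 8 had no symbol beyond a LOC number.

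Among the 15 genes with a symbol and the lowest ratios were, besides those given above, the following. ITGB6, the epithelial integrin chain that activates TGF-beta, had 23.6 FPKM in early, 25.1 in peak and 4.50 in late (log2 ratio -2.16). MPZL2, an epithelial adhesion protein, had 7.13, 20.7 and 0.337 FPKM (-2.60), and LPP, a protein of cell adhesions, had 7.01, 14.7 and 0.0466 FPKM (-2.94). PRR13 had 18.1, 44.8 and 1.34 FPKM (-3.03). AGP, an acute phase glycoprotein of plasma, had 5.31, 279 and 0.588 FPKM (-1.99), and was far higher in the library labelled peak than in the others. ITGB6, MPZL2, LPP, PRR13 and AGP passed the filter through the early library alone, so their ratios could only lie below 0. Nothing is read from their calls. The same holds for the genes listed at 0 in late and for LOC102175177 below. Apart from LALBA, the symbols listed at 0 in late were HES4, a transcriptional repressor of the HES family, at 44.6 and 118 FPKM in early and peak, FAM110C at 8.99 and 5.29, SPINK9, a protease inhibitor of skin, at 6.06 and 149, and AWAT1, a wax ester synthase that was also listed at 0 in peak, at 7.34 in early. The locus given for HES4 was short, from 8267409 to 8267619, and whether it covers the whole gene was not examined. Genes listed at 0 numbered 65, 24 and 200 among all 13023 genes in early, peak and late, so they were most frequent in the library labelled late. Of the 101 genes called lower, 31 had no symbol beyond a LOC number, among them LOC102175177 at 8.17, 45.3 and 1.11 FPKM (-2.12) and LOC102171786 at 23.1, 62.4 and 5.51 FPKM (-1.89).

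The summed FPKM of the 13023 genes was 478221 in early, 275836 in peak and 421182 in late, or 47.2%, 30.0% and 45.4% of the sums over all loci. FPKM is a relative unit, and LALBA alone accounted for 70053 of the early sum. Rescaling both libraries to the same sum without the 20 most abundant genes shifted the late values by 0.03 on the log2 scale, and the median of all genes then was 0.03. On that scale C1QA, JUNB, FTL and IRF1, with log2 ratios of -0.99, -0.99, -0.98 and -0.99, were no longer 2-fold lower.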

How the data were processed

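The deposited values are FPKM in 1 column per library for 50041 loci, with stages taken from the sample labels. There were 0 other per-sample columns. The authors trimmed reads with Trimmomatic, mapped them with TopHat2 2.0.9 and Bowtie2, assembled them with Cufflinks 2.1.1 and Cuffmerge and quantified them with Cuffdiff, according to the methods and the submitters' processing notes. Per library, 48.0%, 52.7% and 48.2% of values above 0 (early, peak, late) ended in 5, and no reason is stated.

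Gene IDs were matched to the goat gene table of assembly ARS1.2 for symbols and classes only, since the methods name more than one goat reference and the deposited values do not say which the scaffolds belong to. Loci of 1 protein-coding ID were summed, genes of at least 5 FPKM in either library were kept, and a gene was called at a log2 ratio of at least 1 in size with a pseudocount of 1 FPKM. This scale understates differences of low genes. A gene that passed the filter through 1 library alone can only have its ratio on that library's side. Each stage is 1 pool of 5 goats, so no test was run. Symbols were matched exactly, with older names accepted for ATP synthase subunits. The text names, per list, the most abundant member and up to 4 with the largest ratios, then the 15 highest and 15 lowest ratios with a symbol, the 15 most abundant genes, 16 names fixed by hand and defining markers, except 1 gene that is not reported here. CTGF, FYTTD1, FAM76A and MAPK13 are named for lying at a limit. Members and lists were chosen with earlier results of these data known. The counting was tested on simulated data. Alternatives were other pseudocounts, filters and folds, centring, rescaling, the most abundant locus per gene, exchanged columns and leaving out genes listed at 0. Computation used pandas 2.3.3 and numpy 2.4.6 under Python 3.11.15, and figures were drawn with matplotlib 3.10.9.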

Additional observations from a re-analysis of the deposited data

How the results depend on the processing

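Counts are given as all genes 2-fold apart, higher and lower in the library labelled late (136, 35 and 101 as reported). They were 59, 22 and 37 with a pseudocount of 5 FPKM, 277, 71 and 206 with a filter of 1 FPKM and equally with no filter, 44, 15 and 29 with a filter of 20 FPKM, 24, 7 and 17 at 4-fold and 499, 159 and 340 at 1.5-fold. The higher genes made up 25.7% of the calls as reported, 37.3% with a pseudocount of 5 FPKM and 44.0% with exchanged columns. The median ratio of all genes was -0.027 with no filter, -0.018 with a filter of 1 FPKM, 0.049 with a filter of 20 FPKM, 0.0046 with a filter on the mean of the 3 libraries, 0 when centred and 0.033 when rescaled. With a filter of 20 FPKM, 3 lists instead of 6 lay at least 0.2 above it. The filter moved some list medians by over 1.5 times. With no filter and with filters of 1 FPKM, 20 FPKM and 5 FPKM on the mean, the antimicrobial median was -0.73, -0.84, -0.70 and -0.64. The steroid receptor median was -0.0039 with no filter, 0.013 at 1 FPKM and 0.062 on the mean. Fatty acid synthesis had 0.24 at 1 FPKM and 0.54 at 20 FPKM, where STAT3 and involution had -0.13, heat shock -0.53 and proteases -0.60. Rescaling ended the calls of C1QA (-0.992), JUNB (-0.991), FTL (-0.985) and IRF1 (-0.986). Leaving out genes listed at 0, an alternative chosen after seeing the data, gave milk proteins a median of 0.31. Apart from the steroid receptor list, none of the 18 lists at least 0.2 from the median changed sign where recomputed with the columns kept as labelled. The 55 called genes above 0 were recomputed only with a pseudocount of 0.1 FPKM, centring, rescaling, the most abundant locus and exchanged columns. None of them changed sign while the columns were kept as labelled. The other filters, folds and the pseudocount of 5 FPKM were not tried on single genes.

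Exchanging the columns labelled peak and late changed most. It gave 918 genes 2-fold apart, 404 higher and 514 lower, a median of -0.086 and 13 lists above. Signs reversed for the medians of STAT3 and involution (0.089), antigen presentation (0.53), cholesterol (-0.58), complement (0.86), endothelium (-0.015), fatty acid synthesis (-0.61), interferon-stimulated (0.42), chemokine (0.65), macrophage (0.61), protease (0.68), milk fat globule (-1.45) and milk protein genes (-1.41). Signs also reversed for PRR13 (1.26), LPP (0.97), MPZL2 (1.42), CXCL10 (1.14), ITGB6 (0.082), LOC102175177 (2.33), CFI (2.06), AGP (5.47), CCL5 (1.52), LOC102171786 (1.39), CD2 (0.91), CD86 (0.61), IL7R (1.04), CHI3L1 (1.08), CD74 (0.97), CTSS (0.54), CFB (1.61), CTSW (0.99), C1QB (0.87), NKG7 (0.43), CSF1R (0.60), PSMB8 (0.41), C1QA (0.86), JUNB (1.2), IRF1 (1.40), TM7SF2 (-0.23), INSIG1 (-0.025), SCN7A (-1.58), PROM2 (-0.41), SDSL (-0.12) and PNPLA3 (-0.12). Called genes below 5 FPKM in both early and peak dropped out of this comparison. Among them, peak over early was below 0 for RET (-0.20), CDHR5 (-0.14), OLFM3 (-0.25), PI16 (-1.31), LOC102185436 (-0.46) and LOC102174664 (-0.67). It was above 0 for CA4 (0.45) and SYNDIG1 (0.15). The cause was not tested, and which column holds the late stage decides these directions.

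No paired analysis was possible because 1 library stands for each stage, which also left no replicate to omit. Depth per gene is unknown, and with it the counting error of low values.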
